A study of Mus musculus with 16 samples.

Results

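The genes described here encode the nuclear-encoded subunits of the mitochondrial respiratory chain, measured by RNA sequencing in mouse osteosarcomas. They were taken by name from the protein-coding rows of the count table: every gene whose symbol begins with Nduf followed by a subunit letter and number, Uqcr, Cox4 to Cox8 or Atp5, the 4 genes Sdha, Sdhb, Sdhc and Sdhd, and Cyc1. The rule gave 85 of the 25054 genes in the table and used no measured value. By the complex in which their products work, 7 encode core subunits of complex I and 29 its accessory subunits, 4 encode complex II, 9 complex III, 12 general and 6 tissue-restricted subunits of complex IV, 17 the ATP synthase (complex V), and 1, Cox7a2l, a factor that joins complexes into supercomplexes. Of the 85, 82 had enough counts to be tested, and Cox7a1, Cox6b2 and Cox5b-ps did not.

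The study asked what loss of Arid1a, a subunit of the SWI/SNF chromatin remodeling complex, does in osteosarcomas that already lack Trp53 and Rb1. The 8 tumors labeled KO carried OsxCreERT2+/-, p53 fl/fl, Rb1 fl/fl and Arid1a fl/fl, and the 8 labeled WT carried the first 3 of these alleles without the floxed Arid1a. In both groups tamoxifen (400 μg/g) was injected at 1 month of age, and the mice, of both sexes, were older than 6 months. The Cre recombinase was driven by Osterix (Osx), a gene of the osteoblast lineage, so cells of other lineages in a tumor would keep their alleles. The KO tumors came from 8 mice. The WT tumors came from 4: mouse N42 gave 4 of them, mouse N43 gave 2, and N215 and N25 gave 1 each, a hind limb tumor and one labeled lung. The WT tumors are therefore not 8 independent animals and p-values over tumors are too small to that extent.

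The respiratory chain transfers electrons from NADH (complex I) and succinate (complex II) through complex III to oxygen at complex IV, and the proton gradient that complexes I, III and IV build up drives ATP synthesis at complex V. Most of its subunits are encoded in the nucleus, and 13 are encoded by mitochondrial DNA. Muscle holds much more of the chain than most tissues, and several complex IV subunits have a separate gene for heart and skeletal muscle: Cox6a2, Cox7a1 and Cox8b in place of Cox6a1, Cox7a2 and Cox8a.

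Total counts ranged from 1109487 to 15059640 in the KO tumors and from 7806160 to 16962329 in the WT tumors, and a single count was worth 0.0678 to 2.23 CPM in KO and 0.0486 to 0.113 CPM in WT (CPM, counts rescaled so that all libraries share 1 total, using TMM-normalized library sizes). The targeted gene, Arid1a, was at 187 ± 57.5 CPM in the KO tumors and 167 ± 31.8 CPM in the WT tumors (mean ± SD over 8 each). Its log2 fold change (KO minus WT) was 0.16 (SE 0.22, edgeR adjusted p = 0.715). A count over the whole gene does not separate the floxed exons from the rest, so it does not check the deletion, and KO and WT below are the labels. By reverse transcription PCR the study reported significantly lower Arid1a in tumors of its Arid1a fl/fl mice. The tumors used there are not named. The most abundant osteoblast markers were Ibsp, Alpl and Runx2. In Prince Ibsp was at 0.166 CPM and Alpl at 12.6 CPM, but Runx2 was at 191 CPM, within its WT range (28.2 to 208 CPM). The summed level of 8 such markers ran from 40.05 CPM in Montana to 5438 CPM in Grilka among KO tumors. Among WT tumors it ran from 149 CPM in N25 lung to 4015 CPM in N42 L shoulder.

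Some tumors carried high levels of genes of other tissues. The summed level of 14 skeletal muscle markers was 111762 CPM in Montana and 168789 CPM in Oregon, against 3.59 to 289 CPM in the other 6 KO tumors and 14.97 to 10113 CPM in the WT tumors. In Oregon the myosin heavy chain Myh4 alone stood at 70541 CPM and the creatine kinase Ckm at 19502 CPM. The 8 salivary gland markers summed to 120563 CPM in Prince and to at most 552 CPM in any other tumor. The 6 lung markers summed to 11041 CPM in Massa and 26347 CPM in N25 lung, against at most 17.3 CPM elsewhere. Zelda was highest for the 6 liver markers, at 1205 CPM against at most 24.5 CPM elsewhere. It was also highest for the erythroid markers, at 1444 CPM against at most 481 CPM elsewhere. Of 8 macrophage markers 7 were called lower in KO (edgeR adjusted p under 0.05), where 2.15% of all tested genes were. Their sums were 120 to 505 CPM in KO against 296 to 1745 CPM in WT. Of 3 tested salivary gland markers 2 were called higher in KO, where 1.86% of all tested genes were. In a bulk sample a different number of cells of a type and a different amount of RNA per cell cannot be told apart.

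For 4 of the complex IV genes that the results turn on, the 250 bases before the RefSeq transcription start (GRCm38.p6) are shown, since Cox8b and Cox7a1 are muscle isoforms and Cox8a and Cox7a2 their general counterparts. Capitals mark CG dinucleotides. The Cox8b stretch, at chr7:140900447-140900696 on the minus strand, holds 1 of them, and the Cox7a1 stretch, at chr7:30183921-30184170 on the plus strand, holds 4. The Cox8a stretch, at chr19:7217617-7217866 on the minus strand, holds 11, and the Cox7a2 stretch, at chr9:79759854-79760103 on the minus strand, holds 14.
Cox8b: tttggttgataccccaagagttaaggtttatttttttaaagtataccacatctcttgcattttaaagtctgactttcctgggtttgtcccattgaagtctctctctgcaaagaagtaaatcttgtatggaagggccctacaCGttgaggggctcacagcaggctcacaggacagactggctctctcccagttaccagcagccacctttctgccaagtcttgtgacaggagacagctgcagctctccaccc
Cox8a: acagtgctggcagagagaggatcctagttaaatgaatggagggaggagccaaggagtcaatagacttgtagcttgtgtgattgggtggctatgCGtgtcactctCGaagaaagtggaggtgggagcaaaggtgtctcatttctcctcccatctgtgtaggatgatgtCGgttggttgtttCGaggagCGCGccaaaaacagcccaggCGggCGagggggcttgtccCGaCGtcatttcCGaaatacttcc
Cox7a1: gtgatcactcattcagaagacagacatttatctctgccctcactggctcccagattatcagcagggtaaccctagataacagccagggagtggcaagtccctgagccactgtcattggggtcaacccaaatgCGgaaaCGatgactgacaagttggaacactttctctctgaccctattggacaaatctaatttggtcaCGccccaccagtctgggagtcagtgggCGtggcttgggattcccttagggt
Cox7a2: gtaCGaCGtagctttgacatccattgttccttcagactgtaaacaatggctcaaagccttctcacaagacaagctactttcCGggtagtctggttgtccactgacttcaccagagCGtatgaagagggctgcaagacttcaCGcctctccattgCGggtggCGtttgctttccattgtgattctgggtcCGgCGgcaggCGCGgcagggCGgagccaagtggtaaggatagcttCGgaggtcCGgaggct

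Of the 85 members, 67 had a promoter entry of 300 bases (250 before and 50 after the start). Their median was 19 CG dinucleotides, against 7 over the 27025 promoters of the table. Motifs were searched on both strands, and each was counted on its own whether or not it overlapped another. The motif of nuclear respiratory factor 1, GCGC and TGCGC with any 1 base between them, was found in 16 of the 67 (23.9%) and in 4.81% of all promoters. The ETS motif CCGGAAG, which GABP also binds, was found in 16 of the 67 (23.9%, against 9.16%), and the estrogen-related receptor motif AAGGTCA in 8 (11.9%, against 4.62%). The muscle factor motif MEF2, CTA and TAG with any 4 bases between them, was found in 1 (1.49%, against 3.71%), and the E-box CANNTG in 46 (68.7%, against 72.1%). None of the 3 restricted members with an entry, Cox8b, Cox7a1 and Cox6b2, held the NRF1, ETS, receptor or MEF2 letters. With only 3 promoters and such low shares over all promoters, this does not set them apart. These are matches of letters in a window, the shares were not adjusted for CG content, and binding was not measured.

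Across the complexes most subunit genes had positive fold changes, and only 1 gene, Ndufb7, passed the test. Of the 82 tested members 70 had a positive log2 fold change (KO minus WT) and 12 a negative one, with a median of 0.41, while over all 15413 tested genes 55.9% were positive and the median was 0.10. With edgeR's quasi-likelihood test and an adjusted p under 0.05, 1 member was called higher and 0 lower, where 4.01% of all tested genes were called, 1.86% higher and 2.15% lower. At an unadjusted p under 0.05, 15 members were higher and 1 was lower, against 13.3% and 9.75% of all tested genes. DESeq2 called 5 higher and 0 lower (background 7.76% and 4.77%): Ndufb7, Uqcr11, Ndufs7, Ndufa2 and Ndufb10. No member had KO and WT tumors that did not overlap, a pattern that 0.415% of all tested genes showed.

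**Figure D1:**
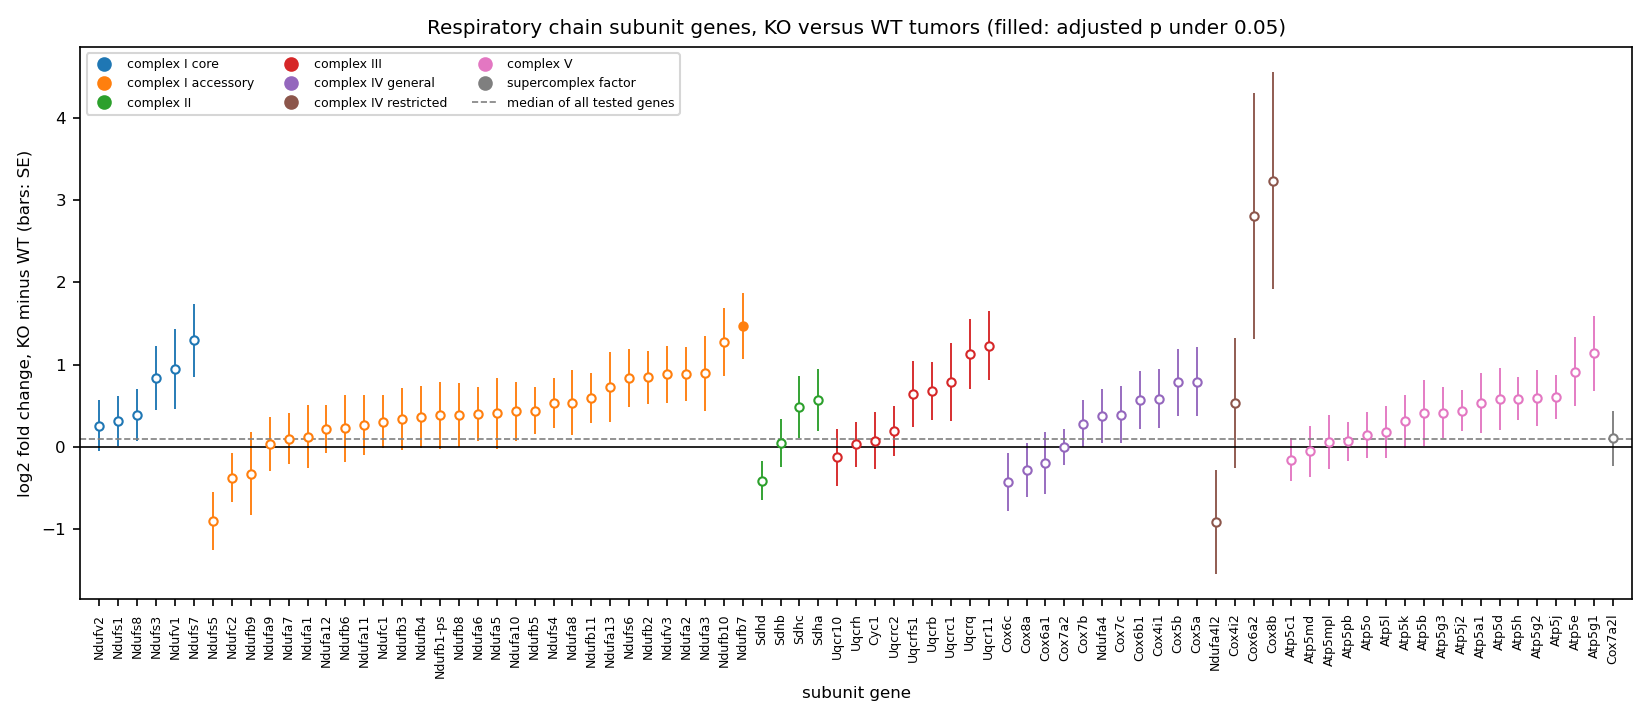
Log2 fold change of tested subunit genes, KO minus WT, from the edgeR fit over 8 KO and 8 WT tumors, grouped and colored by complex. Bars are standard errors, the dashed line is the median of all tested genes (0.10), and the only filled point is Ndufb7. Most points lie above 0, and Cox6a2 and Cox8b have the widest bars.

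High values stood in few KO tumors. The summed level of the 85 members was 10180 CPM in Oregon, 8437 CPM in Montana, 5619 CPM in Prince and 4149 CPM in Massa, and 3016 CPM in Grilka, 2370 CPM in Zelda, 2328 CPM in Medusa and 2163 CPM in Ohio. In the WT tumors it ran from 2779 CPM in N43 spine through a median of 3598 CPM to 4049 CPM in N42 L limb. The KO median, 3582 CPM, was close to that of WT, and KO tumors lay both above and below the whole WT range. Zelda, Medusa and Ohio were below every WT tumor, and Oregon, Montana, Prince and Massa were above every WT tumor. This order depends on the TMM scaling, whose factor was 0.409 in Massa. As a share of all raw counts, only Montana (0.663%) and Oregon (0.634%) were above the WT range (0.321% to 0.544%). Prince (0.449%) and Zelda (0.348%) lay within that range, and Massa (0.168%), Grilka (0.124%), Medusa (0.226%) and Ohio (0.292%) lay below it.

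Relative to the WT median of each gene, 77 of the 82 tested members were higher in Oregon, with a median log2 ratio of 1.42, and 75 in Montana, with a median of 1.03. In Prince 71 members were higher (median 0.61). In Zelda, Ohio and Medusa only 3, 4 and 10 were higher, with medians of -0.55, -0.79 and -0.55. The 2 KO tumors with the highest subunit levels were thus the 2 with the highest muscle markers. Prince, the next, was the tumor with the salivary gland markers, while Zelda, highest in liver and erythroid markers, was low. Among WT tumors subunit levels did not rank with the muscle markers. N43 pelvis and N215 R hind limb, highest in these markers (10113 and 6972 CPM), had subunit sums of 3522 and 3082 CPM, below the WT median of 3598 CPM. N42 R femur, with 67.7 CPM of muscle markers, had 3950 CPM.

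**Figure D2:**
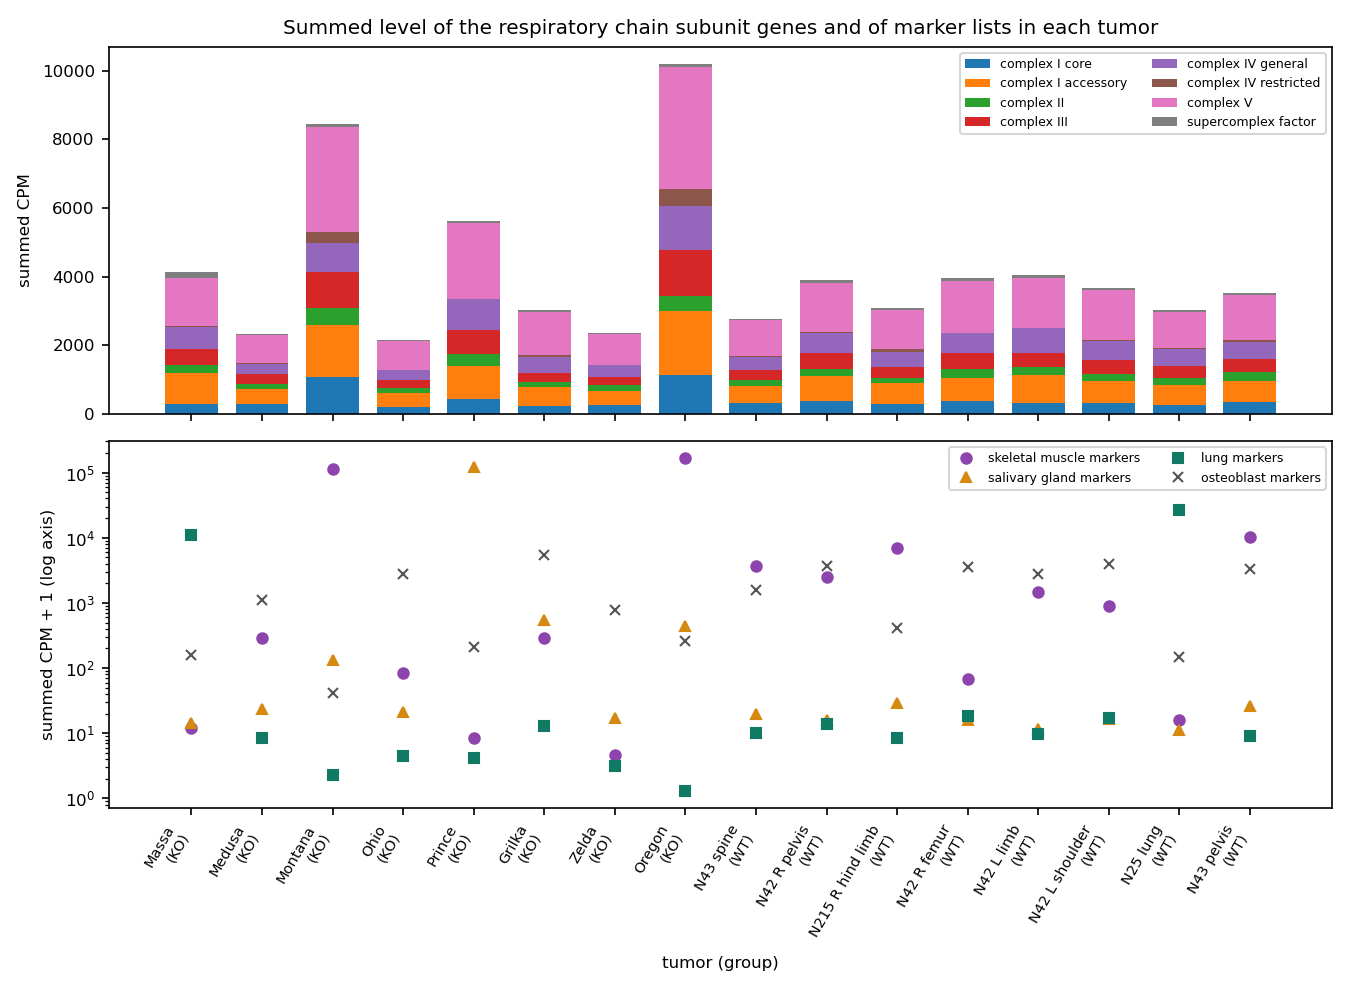
Top, summed CPM of the subunit genes in each tumor, stacked by complex. Bottom, summed CPM plus 1 of 4 marker lists in the same tumors on a log axis. Oregon and Montana stand highest in both the subunit genes (10180 and 8437 CPM) and the skeletal muscle markers.

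Leaving out Montana and Oregon turned the direction of the members. Of 84 tested, 33 were then positive and 51 negative, and their median was -0.10. Over all 16508 genes tested in that fit 52.6% were positive and the median was 0.04. Ndufb7 was no longer called (0.83, adjusted p = 0.196). Without Prince the median of the members was 0.42 and 66 of 82 were higher, but no member was called. Over all genes of that fit 53.1% were higher, with a median of 0.05. Without the 4 tumors of mouse N42 the median of the members was 0.55, with 80 of 84 higher and none called. Over all genes of that fit 58.2% were higher, with a median of 0.13. In the fits with 1 call, that of Ndufb7, the share of all genes called higher was 2.17% with DESeq2 size factors (1.9% lower), 2.06% with upper-quartile scaling (1.83% lower), 2.96% without Massa and Grilka (2.4% lower) and 1.86% with pseudogene copies added (2.15% lower). In the fits with no member called it was 1.35% without the filter on low counts (1.36% lower), 2.91% without N25 lung (2.93% lower), 1.82% without Prince (2.1% lower), 0.0375% with counts summed per mouse (0.025% lower), 0.0454% with mouse as a random effect (0.0649% lower), 0.0312% without mouse N42 (0.0187% lower) and 0.026% with a ribosomal RNA covariate (0.0195% lower). How much of any member's difference was due to tissue other than tumor was not tested.

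Complex I takes electrons from NADH. All 7 of its tested core subunit genes had positive log2 fold changes, with a median of 0.67, and none passed the test. Ndufs7, which holds the iron-sulfur cluster next to the quinone site, had the largest, 1.29 (SE 0.44, adjusted p = 0.0919). It ran from 14.3 CPM through a median of 33.3 to 146 CPM in KO and from 16.6 through 22.9 to 25.5 CPM in WT. Montana (146 CPM) and Oregon (122 CPM) held the high values and the ranges overlapped. Without Montana and Oregon its log2 fold change was 0.29. Ndufv2, part of the NADH-oxidizing arm, had the smallest difference of the core group, 0.26 (SE 0.31, adjusted p = 0.661).

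Among the 29 accessory subunits 26 were positive and 3 negative, with a median of 0.40. Ndufb7, an accessory subunit on the intermembrane face, was the only member called. It lies at chr8:83566671-83571626 (GRCm38). Its KO tumors ran from 9.09 CPM in Zelda through a median of 20.8 to 77.5 CPM in Oregon and its WT tumors from 8.68 CPM in N43 spine through 11.2 to 15.3 CPM in N43 pelvis. The log2 fold change was 1.47 (SE 0.40, edgeR adjusted p = 0.0479), with 5 of the 8 KO tumors above every WT tumor and Medusa, Ohio and Zelda within the WT range. The 2 shallowest libraries, Massa and Grilka, gave it 9 and 16 counts. The call held in 6 of 14 other settings of the analysis and was lost in 8, and it was lost in 12 of the 16 fits that left out 1 tumor.

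Ndufa2, the accessory subunit with the highest level per length (62.3 CPM per kb), ran from 23.0 through 31.9 to 99.7 CPM in KO and from 16.05 through 26.4 to 34.9 CPM in WT. Its log2 fold change was 0.89 (SE 0.33, adjusted p = 0.118). The accessory subunit gene Ndufb10, named after its values were seen, had 1.28 (SE 0.41, adjusted p = 0.0804). Montana and Oregon were the highest tumors for both of these genes.

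Ndufs5 had the lowest log2 fold change of complex I, -0.90 (SE 0.35, edgeR adjusted p = 0.139). Its KO tumors ran from 1.90 through 5.99 to 10.3 CPM and its WT tumors from 9.07 through 11.3 to 13.2 CPM. Ohio and Zelda were lowest, and only Montana and Oregon reached into the WT range. The table also counts a processed pseudogene of it, Ndufs5-ps, at chr16:42955631-42955949 on the plus strand. Over the 319 bases of the copy, counted from 1 at the A of the start codon, it differs from the Ndufs5 reading frame at 2 positions, T81C and A105G (the base of Ndufs5 first), and 196 of its 270 windows of 50 bases, the length of a read, occur unchanged in the Ndufs5 transcript. Positions 51 to 150, which hold both differences, are shown from Ndufs5 (chr4:123715930-123716029, minus strand) and from the copy (chr16:42955681-42955780), with the differing bases in capitals.
Ndufs5: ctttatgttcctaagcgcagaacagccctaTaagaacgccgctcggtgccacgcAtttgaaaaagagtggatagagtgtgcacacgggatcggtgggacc
Ndufs5-ps: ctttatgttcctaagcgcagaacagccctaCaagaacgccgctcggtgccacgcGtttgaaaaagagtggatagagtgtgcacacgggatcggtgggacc

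In KO the copy had 4.58 to 33.5 CPM and in WT 0.295 to 1.55 CPM, and the ranges did not overlap (log2 fold change 4.51, SE 0.52, edgeR adjusted p = 0.000203). Of the counts of gene and copy together, the copy took 50.0% to 83.3% in KO and 2.25% to 12.1% in WT. The sum of both ran from 6.58 CPM in Ohio to 42.5 CPM in Oregon among KO tumors and from 9.41 to 13.9 CPM among WT tumors. With the copy added to the gene the log2 fold change of Ndufs5 was 0.94 (adjusted p = 0.134), the opposite sign of the gene alone. The counting kept the best alignments of reads that match several places, so the split of reads between gene and copy is uncertain. Whether the tumors differ in transcription of the copy or in the sequence at either place was not tested.

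**Figure D3:**
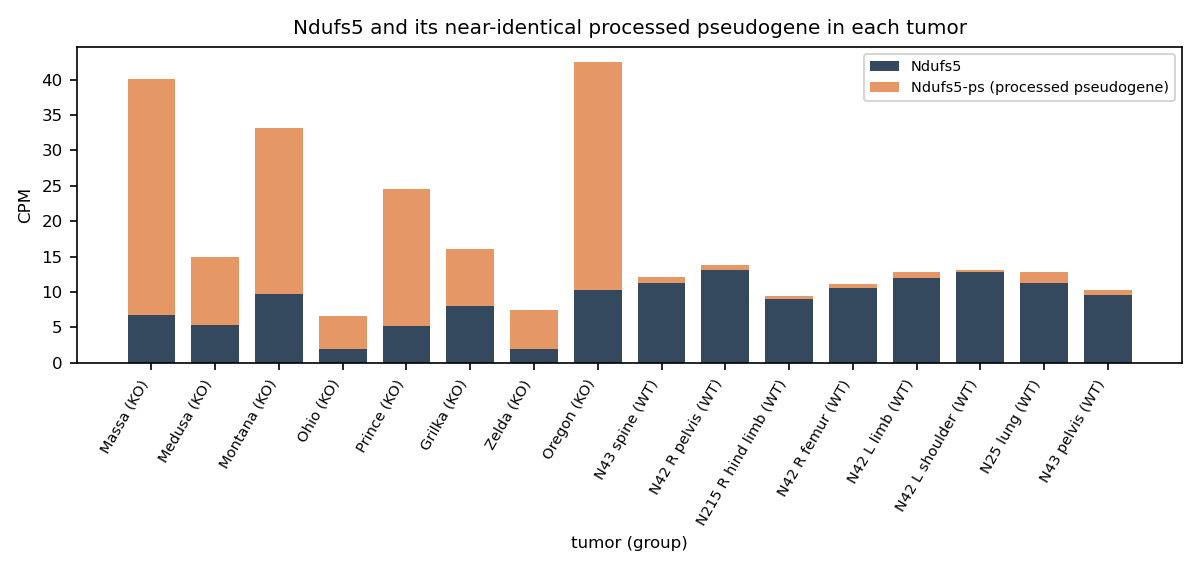
CPM of Ndufs5 (dark) and of its processed pseudogene Ndufs5-ps (light), stacked, in each of the 8 KO and 8 WT tumors. The copy makes up at least 50.0% of the bar in every KO tumor and at most 12.1% in every WT tumor.

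In all, 16 pairs of a member and a copy (15 processed pseudogenes and Cox5b-ps) shared at least 40 windows of 50 bases. The copy's share of the pair did not overlap between KO and WT for Ndufs5 alone. Of the others, Ndufa12 is an accessory subunit of complex I, and its copy Ndufa12-ps took 2.36% to 17.0% in KO and 1.05% to 7.95% in WT. The copy of Cox7a2l, Gm6969, took up to 45.2% in KO and 11.1% to 18.5% in WT. Adding the counts of the copies to their members left the median log2 fold change at 0.42.

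Complex II oxidizes succinate. Its 4 genes had a median log2 fold change of 0.27 and none was called. Sdha, the flavoprotein that binds succinate, had 0.57 (SE 0.37, adjusted p = 0.374), with 32.2 to 270 CPM in KO and 52.5 to 118 CPM in WT. Sdhd, one of the membrane anchors, had the opposite sign, -0.41 (SE 0.24, adjusted p = 0.310). Its KO tumors ran from 23.2 through 40.2 to 57.6 CPM and its WT tumors from 31.8 through 53.7 to 68.7 CPM. Montana (57.6 CPM) and Oregon (41.4 CPM) lay within the WT range for Sdhd.

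Complex III passes electrons to cytochrome c. Of its 9 genes 8 were positive, with a median of 0.64, and none was called by edgeR. Uqcr11, a small accessory subunit, had the highest level per length (76.1 CPM per kb) and the largest difference, 1.23 (SE 0.42, adjusted p = 0.0912). It ran from 18.2 through 53.4 to 192 CPM in KO and from 20.9 through 29.7 to 32.9 CPM in WT. Massa, Medusa, Montana, Prince and Oregon were above every WT tumor, and Ohio, Grilka and Zelda were not. Uqcr10, another small subunit, had the lowest value of the complex, -0.13 (SE 0.35, adjusted p = 0.869).

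Complex IV is cytochrome c oxidase. Of its 11 tested general genes 7 were positive and 4 negative, with a median of 0.38, and none had an unadjusted p under 0.05. Cox5a, a matrix-facing subunit, had the largest, 0.79 (SE 0.42, adjusted p = 0.266). Cox6c had the lowest, -0.42 (SE 0.35, adjusted p = 0.504), and 1 WT tumor, described further on, stood far above the rest for it. Cox6a1, with the highest level per length of the complex (79.0 CPM per kb), had -0.19 (SE 0.38, adjusted p = 0.809).

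The muscle isoforms of complex IV ran from few or no counts in some tumors to high levels in others. Cox6a2 had 305 CPM in Oregon and 214 CPM in Montana and at most 1.34 CPM in the other 6 KO tumors, with no count in Massa and Zelda. In WT it ran from 0.0568 CPM in N42 R femur through a median of 7.10 to 27.3 CPM in N43 pelvis. Its fitted log2 fold change was 2.81 (SE 1.495, adjusted p = 0.270) while its KO median, 0.354 CPM, was below the WT median. Without Montana and Oregon it was called lower in KO, at -5.26 (edgeR adjusted p = 0.0398), the 1 member called in that fit, where 1.22% of genes were called lower and 1.03% higher. In that comparison the muscle markers moved the same way, at 3.59 to 289 CPM in the 6 KO tumors and 14.97 to 10113 CPM in WT.

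Cox8b had 135 CPM in Oregon and 75.8 CPM in Montana, 8.92 CPM in Massa, and 3.65 CPM or less in the other KO tumors, and 0.114 to 11.5 CPM in WT. Its log2 fold change was 3.24 (SE 1.32, adjusted p = 0.155), but -0.87 without Montana and Oregon and -0.10 with mouse as a random effect in limma-voom. Cox7a1, not tested, had 66.3 CPM in Oregon, 17.9 CPM in Montana, 3.98 CPM in Prince and at most 0.286 CPM in the other KO tumors, and 0.340 to 4.31 CPM in WT. For all 3 muscle isoforms Oregon and Montana were the highest tumors, in that order.

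Of the general counterparts, Cox6a1 and Cox8a were below the WT median in these 2 tumors, in which most of the chain was above it. Relative to the WT median, the mean log2 ratio of Montana and Oregon was -1.21 for Cox6a1, the lowest of the 82 members, and -0.71 for Cox8a, the third lowest, while the core subunit Ndufs7 stood at 2.52. Cox6a1 was at 21.3 CPM in Oregon and 24.7 CPM in Montana, below its other 14 tumors (29.4 to 109 CPM). For Cox8a, Zelda (16.4 CPM), Medusa (16.5 CPM) and Ohio (17.7 CPM) were lower still than Montana (22.96 CPM) and Oregon (26.8 CPM). Cox7a2 was at 0.33 on the log2 scale. Cox4i1, the general form of a pair that is not split between muscle and other tissues, was raised in both, at 236 and 217 CPM against 58.5 to 94.6 CPM in WT.

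As shares of each pair, Cox6a2 made up 93.5% and Cox8b 83.4% in Oregon, and 89.6% and 76.7% in Montana. Cox7a1 made up 56.0% and 31.4%. In the other 6 KO tumors the share of Cox6a2 was at most 2.083%, and in WT it ran from 0.0602% to 36.8%. The WT tumors with the highest muscle markers, N43 pelvis (10113 CPM) and N215 R hind limb (6972 CPM), also had the highest Cox6a2 shares, 35.0% and 36.8%, and N42 R femur and N25 lung, with the lowest muscle markers, had the lowest, 0.0602% and 2.71%. No pair passed a test of the groups. The log2 ratio of Cox8b to Cox8a was higher by 1.295 in KO, that of Cox7a1 to Cox7a2 by 0.54, and that of Cox6a2 to Cox6a1 was -0.46, with p-values of 0.333, 0.577 and 0.8 in two-sided exact permutation tests, and adjusted values over the 5 pairs of 0.777 to 0.8.

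**Figure D4:**
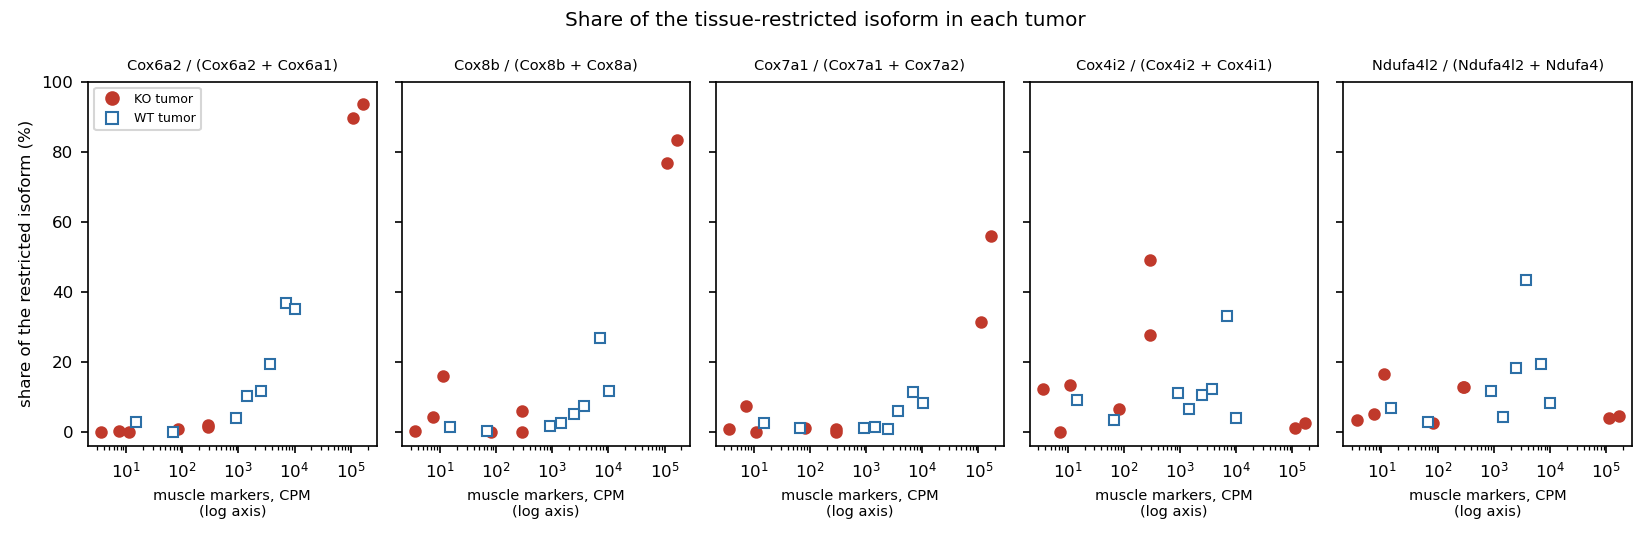
Share of the restricted isoform in the summed CPM of each isoform pair (vertical axis, percent) against the summed CPM of 14 skeletal muscle markers (horizontal log axis), 1 point per tumor, filled for KO and open for WT. In the first 3 panels the 2 KO tumors at the right, Montana and Oregon, stand highest, and in the last 2 they stand low.

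Cox4i2 and Ndufa4l2, isoforms known to respond to low oxygen, did not follow the muscle markers. Cox4i2 had 67.1 CPM in Grilka, 18.4 CPM in Medusa and 15.6 CPM in Massa, but 5.87 CPM in Oregon and 2.30 CPM in Montana, and 0.166 CPM in Prince. Its WT tumors ran from 3.26 through 8.63 to 29.0 CPM, the highest in N215 R hind limb. As a share of the pair with Cox4i1 it made up 49.0% in Grilka and 0.117% in Prince. Its log2 fold change was 0.53 (SE 0.79, adjusted p = 0.734).

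Ndufa4l2 ran from 0.572 through 3.45 to 11.2 CPM in KO and from 1.19 through 4.50 to 17.9 CPM in WT, highest in N43 spine, with a log2 fold change of -0.91 (SE 0.63, adjusted p = 0.406). Its counterpart Ndufa4, first described in complex I and now placed in complex IV, had 0.38 (SE 0.33, adjusted p = 0.524). The log2 ratios of these 2 pairs differed between groups by -0.50 and -0.74, with exact permutation p-values of 0.621 and 0.224 (adjusted p = 0.777 for both). Cox6b2, the testis form of Cox6b1, was at 3.73 CPM or less in every tumor.

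Complex V makes ATP. Of its 17 genes 15 were positive, with a median of 0.42, and none was called. Atp5a1 and Atp5b, the alpha and beta subunits of its catalytic head, had the highest levels per length of all members (108 and 89.3 CPM per kb). Atp5a1 ran from 159 through 256 to 850 CPM in KO and from 197 through 288 to 348 CPM in WT. Oregon, Montana and Prince (539 CPM) were above every WT tumor, the other 5 KO tumors were not, and the log2 fold change was 0.53 (SE 0.37, adjusted p = 0.405).

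Atp5g1, one of 3 genes for the c subunit of the rotor, had the largest value of complex V, 1.14 (SE 0.46, adjusted p = 0.151), with 19.3 to 220 CPM in KO and 19.4 to 41.9 CPM in WT. The genes for the same protein differed in size of the difference, with 0.60 for Atp5g2 and 0.42 for Atp5g3. Atp5c1, the gamma subunit of the central stalk, had the lowest, -0.15 (SE 0.27, adjusted p = 0.780). Cox7a2l had 0.11 (SE 0.34, adjusted p = 0.889), with 194 CPM in Massa and 21.1 to 71.4 CPM in the other KO tumors.

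In 1 WT tumor 2 members of chromosome 15 stood far above the other WT tumors. In N42 L limb Cox6c (chr15:35925886-35938246) was at 224 CPM, where the other 7 WT tumors had 41.0 to 83.7 CPM, and Ndufb9 (chr15:58933756-58939488) was at 161 CPM, where they had 21.8 to 41.8 CPM. The log2 ratios to the median of the other 7 WT tumors were 1.92 and 2.47. Ndufb9, named here after its values were seen, is an accessory subunit of complex I. Of the 20 nearest tested genes, 15 around Cox6c and 17 around Ndufb9 had log2 ratios above 1, with medians of 1.75 and 2.03.

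Over the first 63 Mb of chromosome 15, a boundary chosen after the values were seen, the 187 tested genes had a median log2 ratio of 1.40 in N42 L limb. Of these, 65.8% were more than 2-fold above the median of the other WT tumors, against 3.13% on other chromosomes. The 419 genes beyond 63 Mb had a median of -0.51, and genes of other chromosomes -0.02. The 3 members beyond the boundary, Cyc1, Ndufa6 and Atp5g2, were at -0.74, -0.79 and -0.47. Of the other 3 tumors of mouse N42, R pelvis had a median of 0.33 over the first 63 Mb and 0.20 beyond them. In the same order, 9.63% and 6.21% of its genes were more than 2-fold above the median of the other WT tumors (3.31% on other chromosomes). R femur and L shoulder had medians of -0.10 and -0.07 over the first 63 Mb. Without N42 L limb the log2 fold change of Cox6c was -0.02. Why these genes were high together was not tested.

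**Figure D5:**
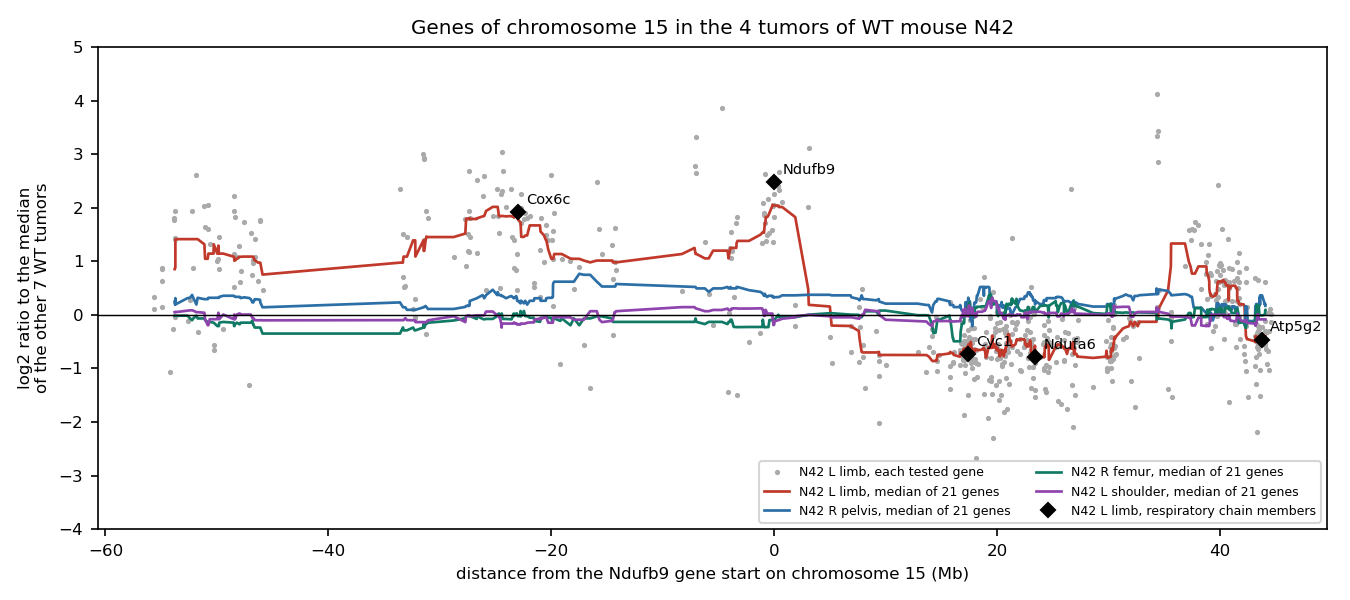
Log2 ratio of each tested gene of chromosome 15 in WT tumor N42 L limb to the median of the other 7 WT tumors (gray points), against distance from the start of Ndufb9 in Mb. Lines are running medians of 21 genes for the 4 tumors of mouse N42, and diamonds are the 5 members on this chromosome in N42 L limb. Cox6c and Ndufb9 lie on the raised stretch, at 1.92 and 2.47, and Cyc1, Ndufa6 and Atp5g2 lie below 0.

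The other genes of the pathway gave few calls. Of the 13 subunits encoded by mitochondrial DNA all 13 were positive (median log2 fold change 1.62), and only mt-Nd6 was called (2.54, SE 0.68, edgeR adjusted p = 0.0444). Over all tested genes 55.9% were positive and 1.86% were called higher. None of the 13 was called with counts summed per mouse, with mouse as a random effect, without mouse N42, without Montana and Oregon, without Massa and Grilka, without the filter on low counts, with the ribosomal RNA covariate, or in 12 of the 16 fits that left out 1 tumor. The most abundant were mt-Co1, with a log2 fold change of 1.51, mt-Cytb (1.48) and mt-Nd5 (2.18). These genes made up 17.1% of all counts in Massa, the shallowest library, and 1.43% to 7.004% in the other KO tumors, against 1.46% to 10.98% in WT. Massa was above every other tumor for their sum without being so for the nuclear subunits.

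Of 40 assembly factors 36 were positive (median 0.49) and 2 were called higher, where 55.9% of all tested genes were positive and 1.86% were called higher. Neither was called with counts summed per mouse, with mouse as a random effect, without mouse N42, without Montana and Oregon, or with the ribosomal RNA covariate. Timmdc1, which helps build complex I, had 12.1 to 27.0 CPM in KO and 9.78 to 12.1 CPM in WT, a log2 fold change of 0.91 (SE 0.21, edgeR adjusted p = 0.0266). Lyrm7, which helps insert the iron-sulfur protein into complex III, had 1.06 to 6.71 CPM in KO and 0.0972 to 1.36 CPM in WT, with 2.52 (SE 0.52, adjusted p = 0.0146). The ranges of Timmdc1 and of Lyrm7 overlapped slightly. The most abundant factors, Coa5 (0.61), Ttc19 (0.12) and Uqcc1 (0.54), were not called.

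Of 17 genes of the TCA cycle 15 were positive (median 0.56), where 55.9% of all tested genes were. With edgeR 0 were called, where 4.01% of all tested genes were. At an unadjusted p under 0.05, 2 were higher, against 13.3% of all tested genes. Among the most abundant of the 17 were Ogdh (1.19) and Pdha1 (0.42). Cytochrome c (Cycs), the carrier between complexes III and IV, had 0.98 (SE 0.39, adjusted p = 0.147), with 114 CPM in Oregon and 16.3 to 49.5 CPM in the other KO tumors. The ATPase inhibitor Atpif1 had 0.91 (adjusted p = 0.117), and its pattern over the tumors was different. Montana (24.7 CPM) and Oregon (31.6 CPM) were below its WT range (32.9 to 44.6 CPM). The other KO tumors, at 49.2 to 189 CPM, were above it.

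Of 11 regulators of mitochondrial genes 7 were positive (median 0.23), where 55.9% of all tested genes were. With edgeR 0 were called, where 4.01% of all tested genes were. At an unadjusted p under 0.05, 2 were higher, against 13.3% of all tested genes. Yy1, Gabpa and Pprc1, the most abundant regulators, had 0.14, -0.22 and 1.02. Esrra, an estrogen-related receptor that acts on mitochondrial genes, named after its values were seen, had 14.3 to 127 CPM in KO and 10.1 to 24.6 CPM in WT (log2 fold change 1.55, SE 0.43, adjusted p = 0.0510). Its highest tumors were Prince (127 CPM) and Oregon (80.5 CPM). The coactivator gene Ppargc1a, also on the brown fat list, had 99.8 CPM in Oregon, 48.7 CPM in Prince, 29.3 CPM in Montana and 0 to 8.92 CPM in the other KO tumors, and 0.170 to 13.6 CPM in WT (2.001, SE 0.95, adjusted p = 0.218). For Ppargc1a the 3 highest KO tumors were the 3 with the highest summed level of the subunit genes.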

How the data were processed

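RNA from 16 tumors was depleted of ribosomal RNA and sequenced for 50 cycles from 1 end. The authors aligned reads to mm10 with Novoalign 2.08.01, using Ensembl 74 transcripts, allowed up to 50 alignments per read and kept the best. The deposited values are raw counts per gene, and whether strand was used is not given in the sources used here. The members, lists and tests were chosen with earlier results of these data known. Genes with low counts were removed with filterByExpr (minimum count 10, minimum total 15), leaving 15413 of 25054. Counts were TMM-normalized and tested with edgeR 4.0.16 (quasi-likelihood, Benjamini-Hochberg over all tested genes, threshold 0.05) in R 4.3.3, and every adjusted p of a gene is edgeR's unless DESeq2 is named. The test was also run on simulated counts in which all tumors were drawn independently. That run could not check the effect of WT tumors sharing a mouse. Isoform pairs were compared as log2 ratios of CPM plus 0.5 by two-sided exact permutation tests over tumors. Alternatives used DESeq2 1.42.0 and limma 3.58.1, among others. Named members were those called, the complex IV isoform pairs, the most abundant gene per length of each complex and the largest and smallest change of each complex. Some genes that this rule takes are not reported here. Gene positions are from GENCODE (GRCm38, all 85 members found) and promoters from RefSeq (67 found). The biological coefficient of variation was 70.4%. 1 count was worth up to 2.23 CPM in the shallowest library, so low members are least precise there.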

Additional observations from a re-analysis of the deposited data

Results flagged for a closer look

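4 of 76 groups of values examined had a tumor far from the other 7 of its group on the log2 scale (CPM plus 0.5), as the gap to the nearest tumor divided by the whole range. Chance gives about 1 in 20 groups. For Ndufa4 the N43 spine tumor was the lowest WT tumor, with a ratio of 0.672. The same tumor was lowest for Uqcr11, with 0.608. N215 R hind limb was lowest for Ndufs7, with 0.534. N42 L limb was highest for Cox6c, with 0.581, in the raised stretch of chromosome 15 described above. Over all 85 members 11 of 170 groups had such a tumor.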

How the results depend on the processing

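No paired analysis was possible because the KO and WT tumors come from different mice and share no replicate numbers in the labels. The median log2 fold change of the members was positive in 13 of 14 alternatives and -0.10 without Montana and Oregon. In what follows, gene values are log2 fold changes, none called except where stated, and the causes were not tested. DESeq2 called 5 of 85 members higher, where it called 7.76% of all genes higher and 4.77% lower. It also called 4 mitochondrially encoded subunits, 6 assembly factors and 2 regulators, with Cox6a2 at -2.11 and Cox7a2 at 0.0333. DESeq2 size factors and upper-quartile scaling each called 1 regulator, with Cox7a2 at 0.0405 and 0.0279. In these 2 fits 2.17% and 2.06% of all genes were called higher and 1.9% and 1.83% lower. No member and no mitochondrially encoded subunit (0 of each) was called without the low-count filter or without N25 lung, and 0 members without Prince. Counts summed per mouse, limma-voom, leaving out N42 and the ribosomal RNA covariate each gave 0 members, 0 mitochondrially encoded subunits and 0 assembly factors. Summed per mouse, Cox6a1 was 0.12, Cox7a2 0.12, Uqcr10 0.0841 and Atp5c1 0.0204. With limma-voom, Cox4i2 was -1.07, Cox6a2 -1.96, Cox8b -0.10 and Cox7a2 0.0524. Without N42, Cox6a1 was 0.29, Cox7a2 0.29, Sdhd 0.0369, Uqcr10 0.34, Cox6c 0.17 and Atp5c1 0.11. With the covariate, Cox4i2 was -2.08, Cox7a2 0.0535 and Atp5c1 0.0647. Without Montana and Oregon, 0 members were called higher and 1 lower (Cox6a2, -5.26), where 1.03% of all genes were called higher and 1.22% lower. That fit called 0 mitochondrially encoded subunits, 0 assembly factors and 1 gene of the list of Cycs, Atpif1 and Cox7a2l. In the same fit Cox8b was -0.87, Cox4i1 -0.0370, Cox6a1 0.0364, Ndufa4 -0.17, Atp5a1 -0.10 and Ndufv2 -0.26. The isoform log2 ratios then were 0.18 for Cox4i2, -0.66 for Cox7a1 and -0.32 for Cox8b. Without Massa and Grilka, Cox4i2 was -0.74, Cox7a2 0.00689 and the Cox6a2 ratio 0.44, with 0 mitochondrially encoded subunits and 2 regulators called. There 2.96% of all genes were called higher and 2.4% lower. With named or all pseudogene copies added (the latter chosen after seeing the data), Ndufs5 was 0.94.

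Leaving out 1 tumor at a time, 0 (without Montana, for example, where 1.17% of all genes were called higher) to 4 members (without Zelda, where 4.11% were) were called higher, the share of all genes running from 0.657% to 4.11%, with 0 to 3 mitochondrially encoded subunits, 1 to 3 assembly factors and 0 to 2 regulators. The members' median ran from 0.18 (Oregon) to 0.51 (Ohio), and Ndufb7 from 1.14 to 1.61 (adjusted p 0.0173 to 0.106). Cox4i2 ran from -0.50 to 1.07, Cox7a2 from -0.11 to 0.0526, and the isoform ratios of Cox4i2 from -1.02 to 0.0731, of Cox6a2 from -1.53 to 0.11 and of Cox7a1 from -0.0773 to 0.88. The spread between KO tumors and 2 shallow libraries limit what these data can resolve.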
